A study of Mus musculus with 8 samples.

Results

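The genes described here encode 7 chaperones and folding enzymes of the endoplasmic reticulum (ER) and 3 transcription factors of the unfolded protein response: *Hspa5*, *Hsp90b1*, *Calr*, *Canx*, *Pdia3*, *Pdia4*, *Pdia6*, *Xbp1*, *Atf4* and *Ddit3*. They were taken by gene symbol from the deposited table of raw counts, in which all 10 were found among 15859 genes. All 10 passed the filter on low counts, as did 14371 genes in all. RNA-seq had been performed on distal colon of 8 male mice of a BALB/c x 129SvEV background. The 4 groups, each of 2 mice, were WT day 0, WT day 15, *Hsf1* null day 0 and *Hsf1* null day 15. *Hsf1* null mice lack a functional allele of heat shock factor 1 (HSF1), the main transcription factor of the cytosolic heat shock response, in the whole body, and the WT mice were their littermates. Day 0 mice were untreated and matched for age. Day 15 mice had received the carcinogen azoxymethane (AOM) by intraperitoneal injection at 8 weeks of age, at 10 mg/kg, and from day 7 drank 1.5% dextran sulfate sodium (DSS), a sulfated polysaccharide that damages the epithelium of the colon, for 5 days. The labels give an age of 10 weeks for mice of both days. The day is that of the sample titles, while the protocol in the labels has mice sacrificed after the 5 days of DSS.

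Proteins that are secreted or sit in membranes fold in the ER, where chaperones bind them, lectins hold glycoproteins and disulfide isomerases join their cysteines. When unfolded protein accumulates, sensors in the ER membrane start the unfolded protein response: IRE1 removes a short intron from the *Xbp1* mRNA, ATF6 is released by cleavage, and PERK phosphorylates eIF2α, which favours translation of ATF4 and, downstream of it, of CHOP, the product of *Ddit3*. Plasma cells and mucus-secreting goblet cells, both found in the colon wall, are known for a large ER, and plasma cells for their need of XBP1. Phosphorylation, cleavage and protein were not measured here, and a gene count does not tell the spliced *Xbp1* mRNA from the unspliced one.

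The promoters of the chaperone genes carry the element through which ATF6 and XBP1 are known to act, the ER stress response element (ERSE). It consists of CCAAT, then 9 bases of any kind, then CCACG. It was searched on both strands of RefSeq promoters on GRCm38.p6, each 300 bases long, from 250 bases before a gene's start to 50 after it. All 10 genes had a promoter in that table. The exact element was in 39 of 32851 promoters (0.119%) and in 5 of the 10. With at most 1 of its 10 fixed letters changed it was in 494 promoters (1.5%) and in 8 of the 10. The sites are shown because the 7 chaperone genes and *Ddit3* share them while *Xbp1* and *Atf4* had none in this window. Capitals mark the 2 outer parts of the element, and each line gives the strand on which it reads in that direction.
Hspa5, chr2:34772025-34772043, plus strand: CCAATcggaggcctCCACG
Hsp90b1, chr10:86705638-86705656, minus strand: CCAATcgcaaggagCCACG
Hsp90b1, chr10:86705533-86705551, plus strand: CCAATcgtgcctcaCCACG
Calr, chr8:84847075-84847093, plus strand: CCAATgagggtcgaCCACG
Canx, chr11:50325800-50325818, minus strand: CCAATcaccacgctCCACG
Pdia6, chr12:17266491-17266509, plus strand: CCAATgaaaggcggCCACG
Pdia3, 1 letter changed, chr2:121413873-121413891, plus strand: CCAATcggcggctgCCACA
Pdia4, 1 letter changed, chr6:47813602-47813620, plus strand: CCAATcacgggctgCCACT
Ddit3, 1 letter changed, chr10:127290702-127290720, minus strand: CCAATcagaaagcgGCACG

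The exact sites began between 65 bases (*Hspa5*) and 212 bases (*Hsp90b1*) upstream of the RefSeq start. *Hsp90b1* had a further site with 1 letter changed, chr10:86705598-86705616, so that it held 3 in all. The binding element of HSF1 was searched as 3 units in a row, GAANNTTCNNGAA or TTCNNGAANNTTC. It was in 0.603% of promoters and in 0 of the 10. The core of the UPR element, TGACGTGG (0.676% of promoters), and that of the amino acid response element, TTGCATCA (0.895%), were in 0 of the 10 as well. These searches describe letters in a window of fixed length and say nothing of binding. The intron that IRE1 removes from the *Xbp1* mRNA is shown because it is the part of the transcript that the response acts on. It lies in exon 4 of 5 at chr11:5524279-5524304, plus strand, on GRCm38, and its 26 bases, which are not a multiple of the codon length, are in capitals between 2 flanking bases on each side.
Xbp1: cgCAGCACTCAGACTATGTGCACCTCTGca

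Total counts per mouse were between 2553348 and 12440257, and WT day 0 replicate 2 and *Hsf1* null day 0 replicate 2 had the smallest libraries. Levels are given as CPM, a gene's count per 1000000 counts of its library after TMM scaling of library sizes. *Hsf1* (chr15:76477422-76501913), the gene that was targeted, stood at 40.5 and 36.5 CPM in untreated WT mice and at 14.0 and 11.9 CPM in untreated *Hsf1* null mice. At day 15 there were 50.4 and 45.9 CPM in WT mice, against 13.5 and 9.09 CPM in *Hsf1* null mice, so the groups did not overlap at either day. A log2 fold change was tested with edgeR's quasi-likelihood test over 14371 genes and called at a Benjamini-Hochberg adjusted p under 0.05 and a size above 1. For *Hsf1* it was 2.10 at day 15 (standard error (SE) 0.30, adjusted p = 0.0137) and 1.57 at day 0 (SE 0.30, adjusted p = 0.775, not called). DESeq2 called *Hsf1* at day 0 as well (1.55, adjusted p = 0.0363). The edgeR call at day 15 was lost without *Hsf1* null day 0 replicate 1 (adjusted p = 0.0524) or 2 (0.0518), without WT day 15 replicate 2 (0.0633) and with the 4 mice of day 15 alone (0.0686), at log2 fold changes between 2.07 and 2.16. The p-values measure the spread between mice that were deposited as separate samples. In bulk tissue, fewer cells of a type and less RNA per cell cannot be told apart.

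Of the 10 genes, 1 rose with treatment in both genotypes (*Pdia6*), and 1 fell with treatment in *Hsf1* null mice and was lower there than in WT at day 15 (*Xbp1*). In WT mice 1 of the 10 was called between day 15 and day 0, where 7.74% of all genes tested were called and 3.47% were called higher. Among *Hsf1* null mice 2 of the 10 were called, 1 higher and 1 lower, where 11.8% of all genes were called, 5.30% higher and 6.48% lower. Between genotypes at day 15, 1 of the 10 was called higher in WT, where 3.17% of all genes were called and 1.25% called higher. At 1 or 2 genes of 10, these counts are close to the background shares. The median log2 fold change of the 7 chaperone genes with treatment was 0.39 in WT and 0.29 in *Hsf1* null mice, beside 0.0046 and 0.052 over all genes tested. The plot of the 10 genes by mouse shows every value behind these counts.

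**Figure D1:**
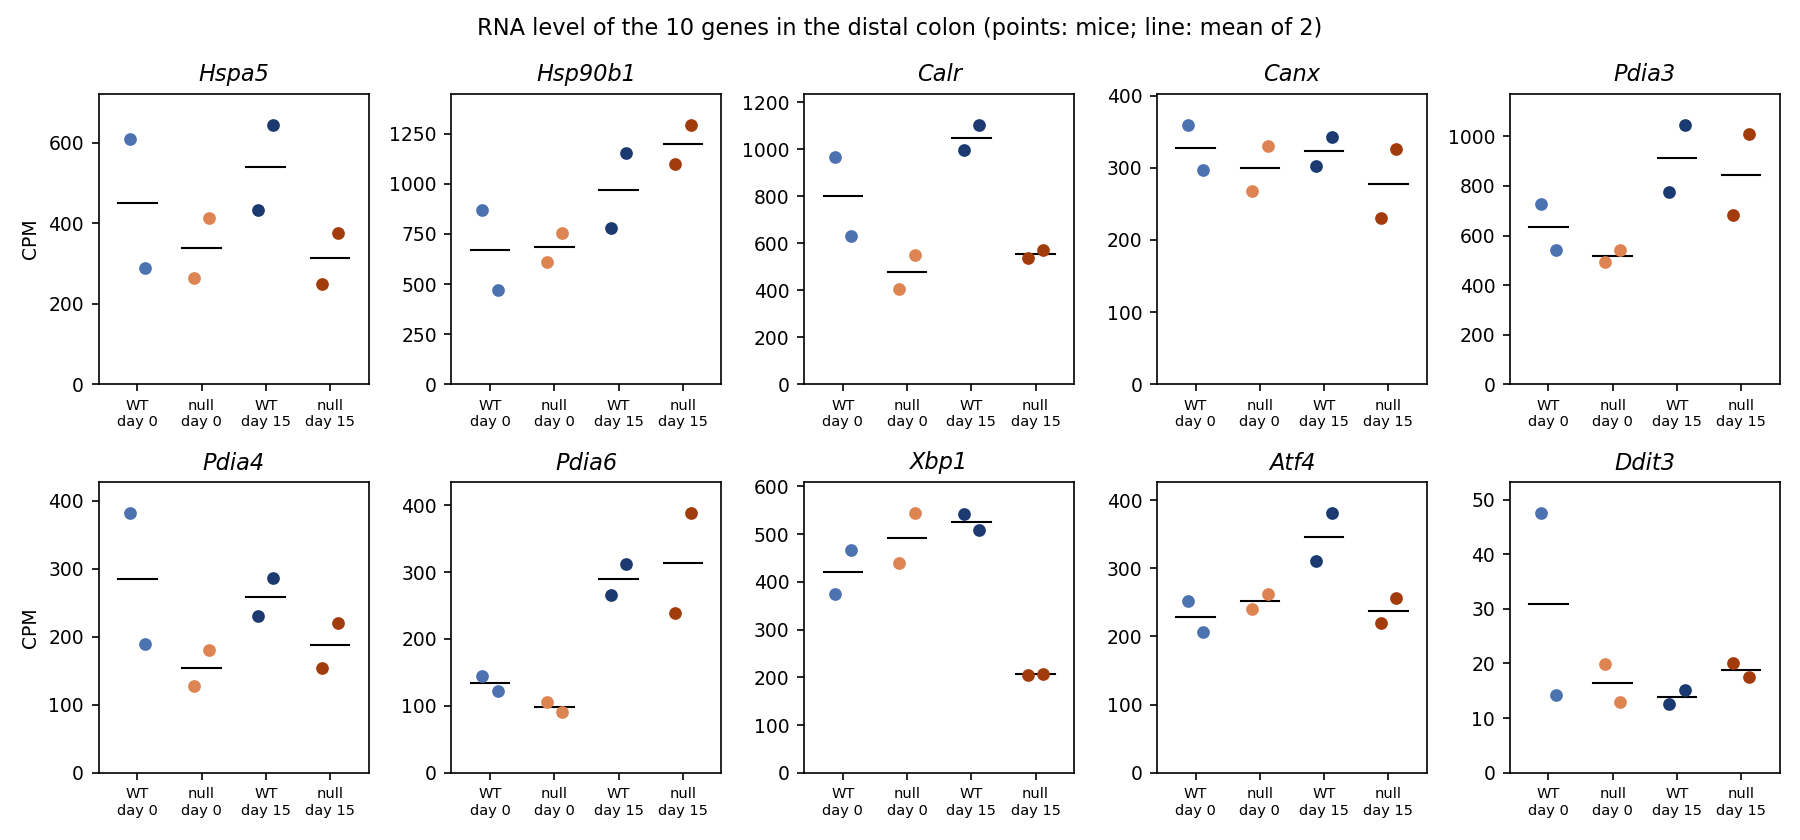
Level of each of the 10 genes in CPM (vertical axis, from 0) in the 4 groups, with a point for each mouse and a line at the mean of 2. *Pdia6* lies higher at day 15 in both genotypes without overlap, *Xbp1* lies lowest in both *Hsf1* null mice at day 15 (206 and 208 CPM), and the 2 WT mice at day 0 lie far apart for *Hspa5*, *Pdia4* and *Ddit3*.

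*Hspa5* (chr2:34771970-34777547) encodes BiP, the HSP70 of the ER, which binds unfolded chains and holds the sensors inactive. It was at 610.2 and 290.0 CPM in untreated WT mice and at 265 and 414 CPM in untreated *Hsf1* null mice. Treated WT mice had 433 and 645 CPM, and treated *Hsf1* null mice had 249.6 and 376 CPM. The WT mice at day 0 spanned most of the range of the gene, and treated and untreated mice overlapped in both genotypes. At day 15 the WT mice were both above the *Hsf1* null mice, by a log2 fold change of 0.78 (SE 0.40, adjusted p = 0.274, edgeR). Its change with treatment was 0.26 in WT (SE 0.40) and -0.11 in *Hsf1* null mice (SE 0.40) on the log2 scale, neither called. Without WT day 0 replicate 1 the change in WT was 0.89, and without WT day 0 replicate 2 it was -0.16.

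*Hsp90b1* (chr10:86690209-86705509) encodes GRP94, the HSP90 of the ER, which folds integrins and Toll-like receptors. In *Hsf1* null mice it was at 612 and 756 CPM at day 0 and 1101 and 1295 CPM at day 15, without overlap. In WT mice it was at 868 and 471 CPM at day 0 and 782 and 1156 CPM at day 15, with overlap. The log2 fold change with treatment was 0.81 in *Hsf1* null mice (SE 0.36, adjusted p = 0.147) and 0.53 in WT mice (SE 0.35, adjusted p = 0.360). The genotypes overlapped at both days. Its exons share 415 bases with the antisense pseudogene *1810014B01Rik*, and whether the counting used strand is not given in the sources used here.

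*Calr* and *Canx* encode calreticulin and calnexin, the soluble and the membrane-bound lectin that hold glycoproteins until they are folded. *Calr* (chr8:84841850-84846934) was at 968 and 630.1 CPM in untreated WT mice and at 405 and 548 CPM in untreated *Hsf1* null mice. At day 15 there were 994 and 1104 CPM in WT mice, against 538 and 569 CPM in *Hsf1* null mice. Every WT mouse thus lay above every *Hsf1* null mouse, at both days. The log2 fold change between genotypes was 0.75 at day 0 (SE 0.30, unadjusted p = 0.0326 and adjusted p = 0.775 from edgeR) and 0.92 at day 15 (SE 0.30, unadjusted p = 0.0121, adjusted p = 0.112). Neither passed the threshold. DESeq2 gave a log2 fold change of 0.92 at day 15 with an adjusted p of 0.0306, which is under the 0.05 but not over the fold set for a call. *Canx* (chr11:50293961-50325673) had the smallest ratio of highest to lowest mouse of the 10, between 230.2 and 359.8 CPM. Its groups overlapped in all 4 comparisons, with log2 fold changes between -0.10 and 0.22.

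The disulfide isomerases *Pdia3*, *Pdia4* and *Pdia6* encode ERp57, which works with the lectins on glycoproteins, ERp72, and P5, a partner of BiP. *Pdia6* (chr12:17266545-17284770) was at 145 and 122 CPM in untreated WT mice and at 106 and 90.5 CPM in untreated *Hsf1* null mice. Treated WT mice had 266 and 313 CPM, and treated *Hsf1* null mice had 239 and 388 CPM. Both treated groups lay above both untreated groups without overlap. The gene rose 2.16-fold in WT mice (log2 fold change 1.11, SE 0.28, adjusted p = 0.0408) and 3.18-fold in *Hsf1* null mice (1.67, SE 0.29, adjusted p = 0.0140, edgeR). The difference between genotypes in that change was -0.55 on the log2 scale (SE 0.39, adjusted p = 0.718) and was not called. The call in WT mice was lost without WT day 0 replicate 1 (adjusted p = 0.107) or 2 (0.245), WT day 15 replicate 1 (0.0720) or 2 (0.201) and *Hsf1* null day 0 replicate 1 (0.0585) or 2 (0.0593), with log2 fold changes between 0.99 and 1.24. That in *Hsf1* null mice was lost without *Hsf1* null day 0 replicate 2 (1.56, adjusted p = 0.143).

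*Pdia3* (chr2:121413775-121438687) had changes of the same sign that were smaller and not called. It was at 728 and 543 CPM in untreated WT mice and at 495 and 539.8 CPM in untreated *Hsf1* null mice. At day 15 there were 777 and 1047 CPM in WT mice, against 681 and 1009.8 CPM in *Hsf1* null mice. Treated mice lay above untreated mice of their genotype without overlap. The log2 fold changes were 0.52 in WT (SE 0.31, adjusted p = 0.304) and 0.71 in *Hsf1* null mice (SE 0.31, adjusted p = 0.145, edgeR), neither called. *Pdia4* (chr6:47796141-47813430) was at 382 and 189 CPM in untreated WT mice and at 127 and 181 CPM in untreated *Hsf1* null mice. Treated WT mice had 230.4 and 287 CPM, and treated *Hsf1* null mice had 154 and 221 CPM. WT mice lay above *Hsf1* null mice at both days without overlap, and treated and untreated mice overlapped in both genotypes. The log2 fold change between genotypes at day 0 was 0.90 (SE 0.36, unadjusted p = 0.0314, adjusted p = 0.775, edgeR). Leaving out 1 mouse in turn gave values between 0.30 and 1.30.

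**Figure D2:**
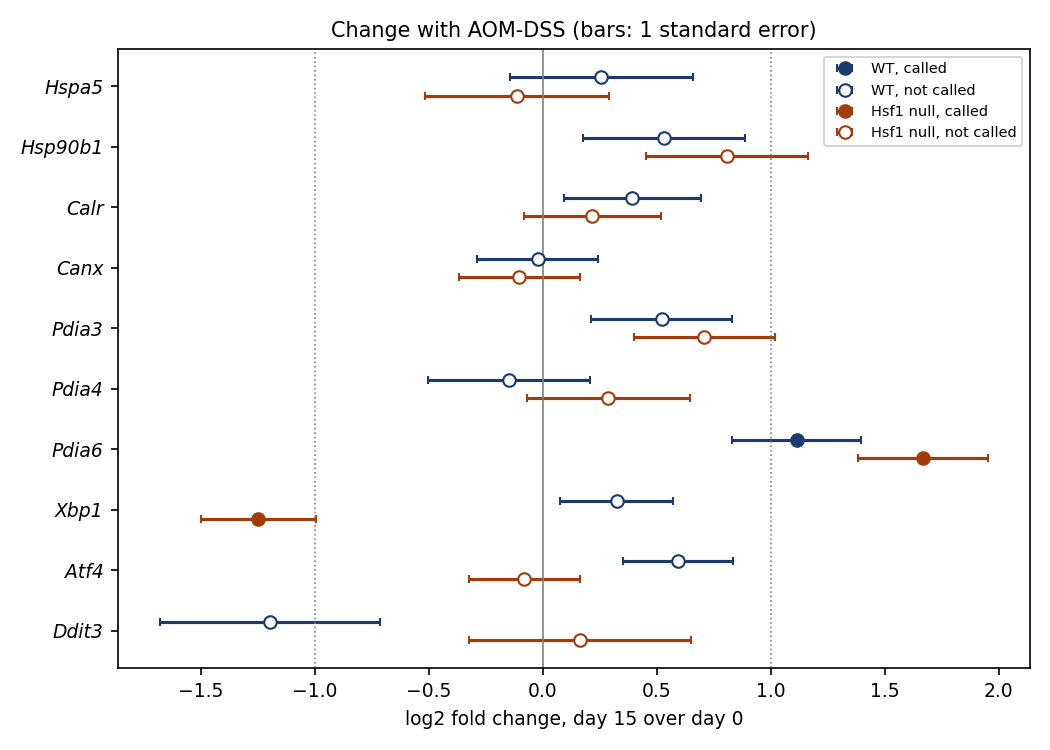
Log2 fold change of day 15 over day 0 (horizontal axis) of the 10 genes in WT (blue) and *Hsf1* null mice (orange), with bars of 1 SE and filled points for called genes. The called values are those of *Pdia6* in both genotypes (1.11 and 1.67) and of *Xbp1* in *Hsf1* null mice (-1.25).

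*Xbp1* (chr11:5520659-5525893) encodes the transcription factor that IRE1 activates, which drives genes of folding and secretion. It was at 374 and 467 CPM in untreated WT mice and at 439 and 544 CPM in untreated *Hsf1* null mice. At day 15 there were 543 and 509 CPM in WT mice, against 206 and 208 CPM in *Hsf1* null mice. The treated *Hsf1* null mice were thus the lowest of all 8, and the treated WT mice lay above both untreated WT mice. *Xbp1* fell 2.37-fold with treatment in *Hsf1* null mice (log2 fold change -1.25, SE 0.25, adjusted p = 0.0201, edgeR), and 9.47% of the genes tested had a lower value. In WT mice the log2 fold change was 0.32 (SE 0.25, adjusted p = 0.429). At day 15 *Xbp1* was 2.54-fold higher in WT than in *Hsf1* null mice (1.35, SE 0.25, adjusted p = 0.0279), and 92.8% of the genes tested had a lower value.

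The genotypes differed in the change of *Xbp1* by 1.57 on the log2 scale (SE 0.35, unadjusted p = 0.00128), which did not pass the adjustment over all genes in edgeR (adjusted p = 0.328). DESeq2 gave 1.59 with an adjusted p of 0.0132 and called it. In edgeR 0 of the 10 genes were called in that contrast, 1 of the 10 had an unadjusted p under 0.05, and 0.00696% of all genes tested, which is 1 gene, were called. Leaving out each mouse in turn kept the value at day 15 between 1.30 and 1.39 and lost the call in 5 of 8 fits, namely without *Hsf1* null day 0 replicate 1 (adjusted p = 0.0530) or 2 (0.0526), WT day 15 replicate 1 (0.0690) or 2 (0.125) and *Hsf1* null day 15 replicate 1 (0.169). The change in *Hsf1* null mice stayed between -1.40 and -1.08 and lost its call without *Hsf1* null day 0 replicate 2 (adjusted p = 0.153) and *Hsf1* null day 15 replicate 1 (0.0712) or 2 (0.0625). A fit of the 4 mice of day 15 alone gave 1.33 at that day (adjusted p = 0.0866) and also lost the call.

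Marker lists of other cell types differed between the genotypes at day 15, as *Xbp1* did. The summed level of 8 plasma cell markers was 3416 to 3433 CPM in WT and 448 to 585 CPM in *Hsf1* null mice at day 15, and 1983 to 2068 and 738 to 1584 CPM at day 0. In all mice but the treated *Hsf1* null ones most of that sum was *Jchain*, the joining chain of secreted IgA and IgM. In *Hsf1* null mice *Jchain* was at 471 and 1378 CPM at day 0 and at 46.8 and 237 CPM at day 15, and in WT mice at 1705 and 1617 CPM and then 2745 and 2613 CPM. The sum of the other 7 markers, taken after these values were seen, was higher at day 15 in both genotypes. It was at 267 and 206 CPM and then 402 and 348 CPM in *Hsf1* null mice. In WT mice it was at 363 and 366 CPM and then 671 and 819 CPM. Most of that sum in *Hsf1* null mice was *Sdc1*, at 186 and 147 CPM at day 0 and 321 and 227 CPM at day 15. In WT mice *Sdc1* was at 188 and 272 CPM and then 326 and 256 CPM. With treatment in *Hsf1* null mice 4 of the 8 had a positive and 4 a negative log2 fold change, with a median of 0.22, and *Jchain* was the 1 gene called (-2.70, adjusted p = 0.0365, edgeR). At day 15, edgeR called 3 of the 8 higher in WT and DESeq2 called 5. The 3 were *Jchain* (log2 fold change 4.24, adjusted p = 0.0240), *Mzb1* (2.39, adjusted p = 0.0241) and *Prdm1* (1.73, adjusted p = 0.0449, edgeR). The summed level of 8 goblet cell markers went the other way, at 7325 to 8986 CPM in WT and 20197 to 39931 CPM in *Hsf1* null mice at day 15, and 3 of the 8 were called lower in WT. Of 9 absorptive colonocyte markers 3 were called lower in WT at that day, at 1141 to 2927 against 3549 to 7743 CPM in sum. Of 8 epithelial markers 0 were called at day 15, at 14988 to 15831 against 20158 to 23079.5 CPM. The absorptive sum was lower in WT without overlap at day 0 as well, at 3781 to 6588 against 9387 to 9461 CPM. The goblet and epithelial sums overlapped between the genotypes at day 0. Every gene of the epithelial, goblet and absorptive lists had counts in all 8 mice. Of the plasma cell list, *Tnfrsf17* and *Tnfrsf13b* were at 0 counts in 1 *Hsf1* null mouse each, at day 15 and at day 0. The part of these lists in the levels of *Xbp1* was not tested.

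Markers of infiltrating and stromal cells differed as well. At day 15 by edgeR, 3 of 9 macrophage and monocyte markers, 4 of 7 neutrophil markers and 1 of 6 endothelial markers were called higher in WT, and 1 of 8 smooth muscle markers was called lower. Their summed levels were 1427 to 2214 against 355 to 843 CPM for macrophages, 131 to 527 against 6.20 to 23.5 CPM for neutrophils, 240.1 to 296 against 63.2 to 137 CPM for endothelium and 2138 to 3685 against 5394 to 6127 CPM for smooth muscle. Several lists also moved with treatment, mainly in WT mice, where edgeR called 6 of 8 smooth muscle, 4 of 9 absorptive and 3 of 8 goblet cell markers lower and 5 of 7 neutrophil, 4 of 9 macrophage and 1 of 8 plasma cell markers higher. In *Hsf1* null mice it called 2 absorptive, 1 plasma cell and 1 fibroblast marker lower and 1 neutrophil marker higher. The summed level of the epithelial markers in *Hsf1* null mice was between 10673 and 16681 CPM at day 0 and between 20158 and 23079.5 CPM at day 15, with 0 of 8 called by edgeR, 3 at an unadjusted p under 0.05 and 3 called higher by DESeq2 (*Krt18*, *Krt19* and *Cldn7*). The part of these lists in the changes of the 10 genes with treatment was not tested. The neutrophil marker *Ngp* was at 0 counts in 6 mice, all those outside WT day 15. Of 9 fibroblast markers edgeR called 0 at that day, with 3 at an unadjusted p under 0.05, and DESeq2 called 3 higher in WT (*Col3a1*, *Dcn* and *Fbln1*). Their sum was 2666 to 2718 CPM in WT and 535 to 1678 CPM in *Hsf1* null mice. At day 0 the fibroblast sum was 2717 CPM in WT replicate 1 and 1106 CPM in WT replicate 2, and that of macrophages was 1093 and 469 CPM. WT replicate 1 was also the higher of the pair for 9 of the 10 genes, all but *Xbp1*, and the part of these lists in that difference was not tested.

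**Figure D3:**
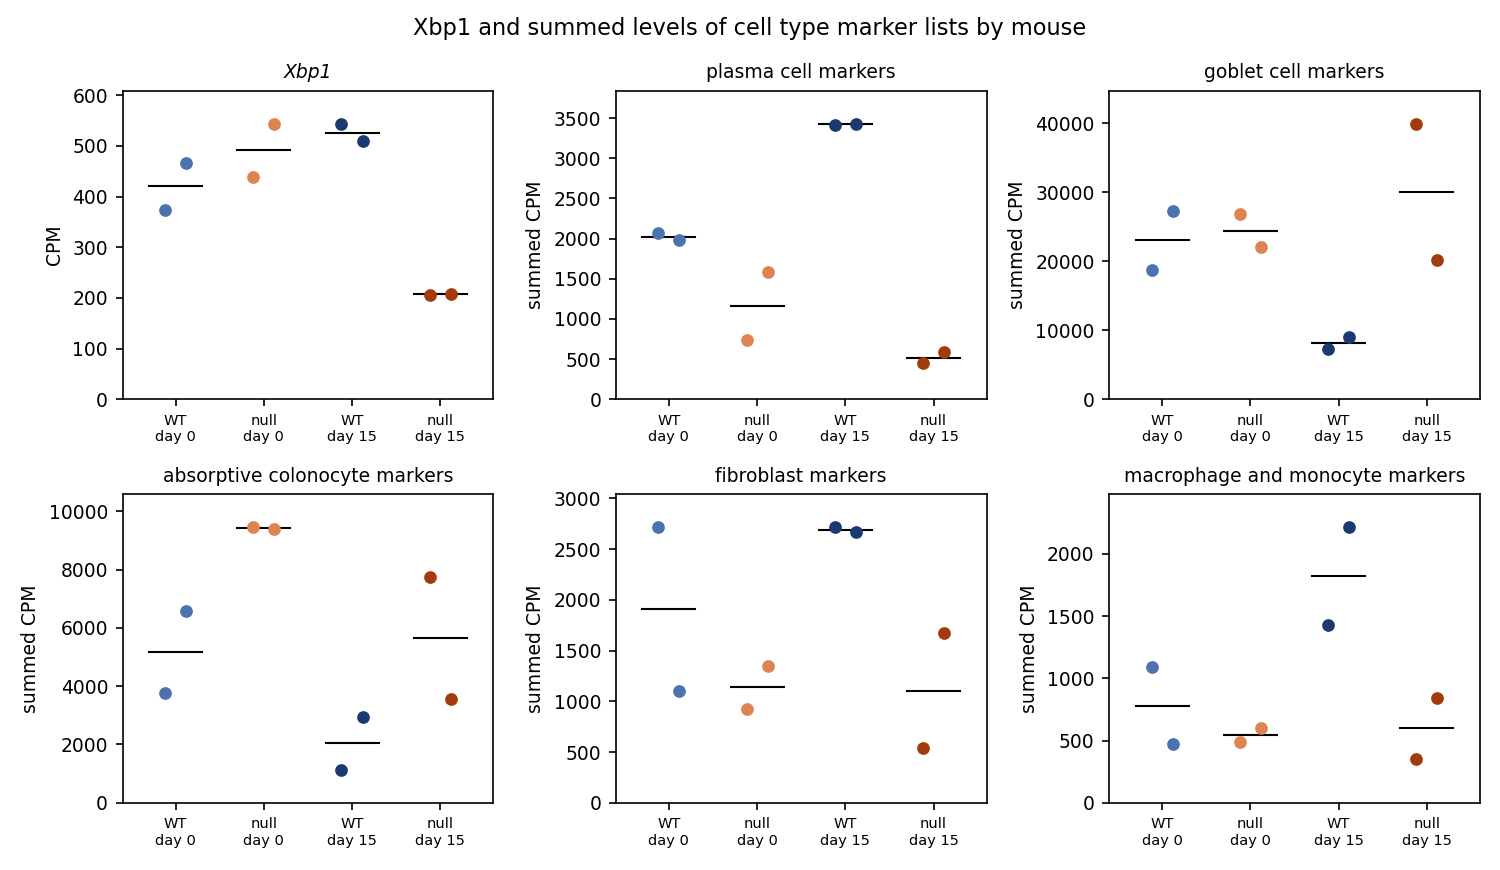
Level of *Xbp1* in CPM and the summed CPM of 5 marker lists (vertical axes, from 0) in the 4 groups, with a point for each mouse and a line at the mean of 2. At day 15 *Xbp1* and the plasma cell sum, most of which is *Jchain* in WT mice, are lower in both *Hsf1* null mice than in both WT mice, and the goblet cell sum is higher.

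*Atf4* and *Ddit3* belong to the branch under PERK. *Atf4* (chr15:80255184-80257541) lies 3.75 Mb from *Hsf1* on the same chromosome. It was at 252 and 206 CPM in untreated WT mice and at 241 and 263 CPM in untreated *Hsf1* null mice. Treated WT mice had 311 and 381 CPM, and treated *Hsf1* null mice had 219.5 and 256 CPM. Both treated WT mice were the highest of all 8. The log2 fold change with treatment in WT was 0.59 (SE 0.24, unadjusted p = 0.0349, adjusted p = 0.149) and that between genotypes at day 15 was 0.54 (SE 0.24, unadjusted p = 0.0503, adjusted p = 0.216, edgeR). The genotypes differed in the change by 0.67 (SE 0.34, adjusted p = 0.619), and none of the 3 values was called.

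*Ddit3* encodes CHOP, which is known to promote cell death in lasting ER stress, and its symbol covers 2 overlapping loci of the annotation, at chr10:127290774-127296288 and chr10:127290829-127293753. Its exons also share 68 bases with the antisense gene *Mars*. It was the lowest of the 10, at 12.5 to 20.0 CPM in 7 mice and at 47.5 CPM in WT day 0 replicate 1. The other WT mouse at day 0 was at 14.3 CPM, and the treated WT mice were at 12.5 and 15.2 CPM. The log2 fold change with treatment in WT mice, -1.20 (SE 0.48, unadjusted p = 0.0328, adjusted p = 0.144, edgeR), was not called, and without that 1 mouse it was -0.046. The *Hsf1* null mice had *Ddit3* at 19.9 and 12.9 CPM at day 0 and 20.0 and 17.5 CPM at day 15.

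Between the genotypes at day 0, 0 of the 10 genes were called by edgeR or by DESeq2, and 2 of the 10 (*Calr* and *Pdia4*) had an unadjusted p under 0.05 in edgeR. Over all genes tested, edgeR called 0%, with 904 genes at an unadjusted p under 0.05, and DESeq2 called 17. WT mice lay above *Hsf1* null mice without overlap for 4 of the 10 genes at day 0 and for 5 of the 10 at day 15, when 1 more (*Ddit3*) lay below. Over all genes tested, 37.1% at day 0 and 54.8% at day 15 did not overlap in either direction. With treatment, 5 of the 10 genes lay higher without overlap in WT mice, and 3 higher and 1 lower in *Hsf1* null mice, where 62.5% and 61.3% of all genes did not overlap. The shares of the 10 genes were thus below those of all genes with treatment and close to them between the genotypes. An exact permutation test of 2 against 2 mice cannot give a p below 0.333.

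**Figure D4:**
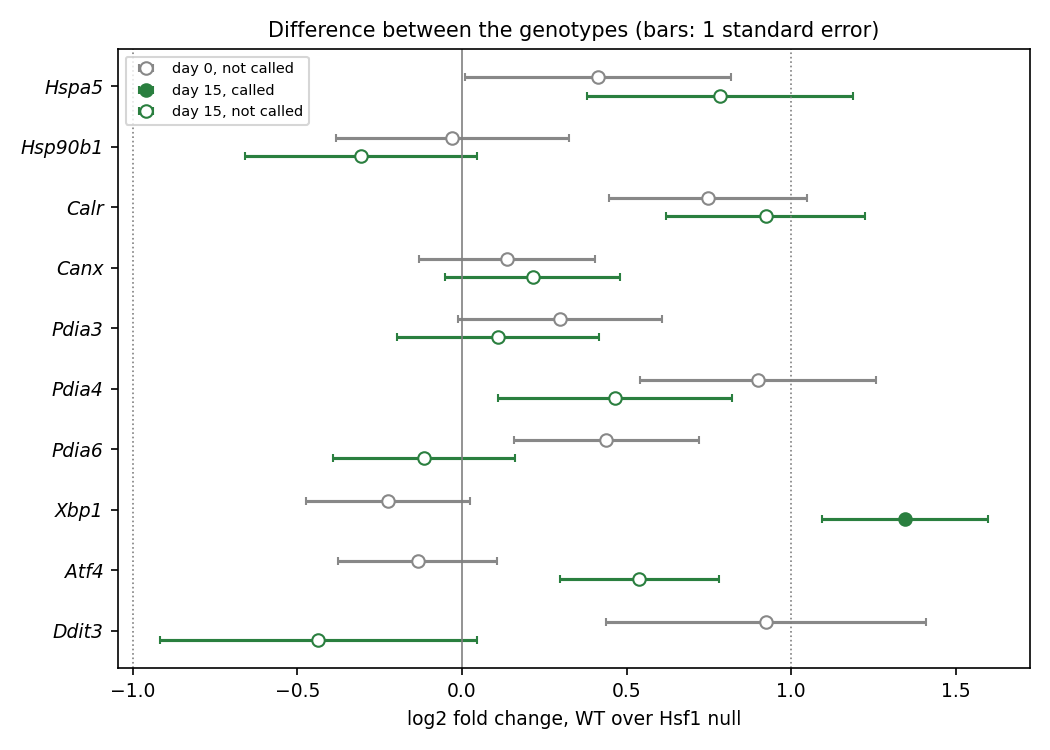
Log2 fold change of WT over *Hsf1* null mice (horizontal axis) of the 10 genes at day 0 (grey) and day 15 (green), with bars of 1 SE and a filled point for the called gene. *Xbp1* at day 15 is called (1.35), *Calr* lies at 0.75 and 0.92 without a call, and *Hsp90b1* lies below 0 at both days.

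Per kilobase of merged exon, the order of the 10 genes was not the same in the 4 groups. In untreated WT mice the order from the highest was *Calr*, *Hsp90b1*, *Pdia3*, *Xbp1*, *Atf4*, *Hspa5*, *Pdia4*, *Canx*, *Pdia6* and *Ddit3*. The values of the mice overlapped between neighbours in 5 of 9 pairs at day 0 in both genotypes, in 3 of 9 in WT and 5 of 9 in *Hsf1* null mice at day 15. In WT mice *Calr* was the highest, at 366 ± 109 CPM per kb at day 0 and 480.4 ± 35.6 at day 15 (SD, n = 2). In *Hsf1* null mice *Hsp90b1* was the highest, at 242 ± 36.2 CPM per kb at day 0 and 424 ± 48.6 at day 15. *Calr* did not overlap with the gene below it in WT mice at day 15, nor did *Hsp90b1* in *Hsf1* null mice at day 15, while at day 0 the leading genes overlapped with the next. *Xbp1* was the fourth at day 0 and at day 15 in WT mice, at 176 ± 27.5 and 220.1 ± 10.0 CPM per kb. In *Hsf1* null mice it was the third at day 0 (206 ± 31.2 CPM per kb) and the sixth at day 15 (86.6 ± 0.615 CPM per kb), where it overlapped with *Hspa5* below it. *Pdia6* was the ninth in both groups at day 0, at 61.4 ± 7.37 and 45.3 ± 5.18 CPM per kb, the seventh in WT mice at day 15 (133 ± 15.2) and the fourth in *Hsf1* null mice at day 15 (144 ± 48.5). *Ddit3* was the lowest in all 4 groups, between 15.6 ± 2.13 and 34.7 ± 26.4 CPM per kb.

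Of the 7 chaperone genes, 6 lay close to their common pattern over the 8 mice and *Pdia6* lay apart from it. Their mean log2 CPM, centred on each gene's mean over the mice, was between -0.56 (*Hsf1* null day 0 replicate 1) and 0.55 (WT day 15 replicate 2), and the 2 WT mice at day 0 stood at 0.29 and -0.36. The root mean square distance to that mean over 8 mice was smallest for *Pdia3* (0.132) and largest among the 7 for *Pdia6* (0.512), and the 5 others were between 0.261 and 0.319. Of the transcription factors, *Atf4* was at 0.252, *Ddit3* at 0.607 and *Xbp1* at 0.682. Over 8901 genes with a mean normalized count above 100, the 5 genes outside the 10 with the smallest distance were *Scarb2* (0.113), *Fam206a* (0.134), *Abl2* (0.146), *Rpn1* (0.155), a subunit of the complex that attaches glycans to new proteins in the ER, and *Nmt1* (0.158). In that order of the 8901 genes *Pdia3* ranked 2, *Pdia4* 215, *Calr* 310, *Hspa5* 328, *Canx* 369 and *Hsp90b1* 604, while *Pdia6* ranked 3836. *Atf4* ranked 175, *Ddit3* 5500 and *Xbp1* 6466. The mean of the 7 holds each of them, which makes their own distances smaller, and all distances describe the same 8 libraries.

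The wider pathway was described with 8 lists of 152 genes, of which 150 were in the table and tested. Among 12 cochaperones of BiP, 2 rose with treatment in WT mice, and 4 rose and 1 fell in *Hsf1* null mice. Over all genes tested, 7.74% were called in WT mice and 3.47% called higher. In *Hsf1* null mice 11.8% of all genes were called, 5.30% higher and 6.48% lower. *Dnajb11*, a J-domain partner of BiP, rose in both, by 1.26 in WT (adjusted p = 0.0335) and 1.52 in *Hsf1* null mice (adjusted p = 0.0189) on the log2 scale. *Manf*, a secreted stabiliser of BiP with its client, rose in both as well (1.09 and 1.55, adjusted p = 0.0482 and 0.0173). *Sil1*, the nucleotide exchange factor of BiP (1.30, adjusted p = 0.0337), and *Creld2* (1.41, adjusted p = 0.0407) were called in *Hsf1* null mice. The change of *Creld2* in WT mice was 1.30 (adjusted p = 0.0615), not called by edgeR, and DESeq2 called it with *Dnajb11* and *Manf*, 3 in all. *Dnajb9*, a J-domain protein known as a target of XBP1 that returns IRE1 to its inactive state, fell in *Hsf1* null mice from 75.2 and 79.4 CPM to 29.8 and 28.9 CPM (-1.40, adjusted p = 0.0153, edgeR). In WT mice it went from 80.7 and 92.8 to 36.7 and 50.1 CPM, a log2 fold change of -0.997 (adjusted p = 0.0368) that fell just short of the fold set for a call. The difference between genotypes in the change was called for 0 of the 12 by edgeR and by DESeq2, and 1 had an unadjusted p under 0.05.

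Of 23 folding enzymes outside the 10 genes, *Erp29*, a redox-inactive relative of the disulfide isomerases, rose in both genotypes, from 67.7 and 47.6 to 177 and 217 CPM in WT and from 91.0 and 37.4 to 288 and 286 CPM in *Hsf1* null mice. Its log2 fold changes were 1.76 (adjusted p = 0.0262) and 2.14 (adjusted p = 0.0153, edgeR). DESeq2 also called 2 of the 23 lower in *Hsf1* null mice (*Tmx3* and *Tmx4*). Of 11 genes of glycoprotein quality control, 2 rose in *Hsf1* null mice, *Prkcsh* (1.33, adjusted p = 0.0232) and *Mogs* (1.04, adjusted p = 0.0305), which encode a glucosidase II subunit and glucosidase I. In WT mice 0 of the 11 were called by edgeR or DESeq2, and 4 had an unadjusted p under 0.05. Of 27 genes of translocation and N-glycosylation, 1 rose in WT mice, *Krtcap2* (1.05, adjusted p = 0.0397). Those that rose in *Hsf1* null mice were 2, *Krtcap2* (1.10, adjusted p = 0.0293) and *Rpn2* (1.05, adjusted p = 0.0270), and 3 fell, *Tusc3* (-2.03, adjusted p = 0.0137), *Sec61g* (-1.38, adjusted p = 0.0211) and *Spcs3* (-1.11, adjusted p = 0.0465). *Krtcap2*, *Rpn2* and *Tusc3* encode subunits of the oligosaccharyltransferase, *Sec61g* one of the translocon and *Spcs3* one of the signal peptidase.

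Of 30 genes listed as targets of ATF4 and CHOP, edgeR called 4 higher and 2 lower with treatment in WT mice and 1 higher and 1 lower in *Hsf1* null mice, with 11 and 12 at an unadjusted p under 0.05. DESeq2 called 6 higher and 2 lower in WT and 5 higher and 1 lower in *Hsf1* null mice. The difference between genotypes in the change was called for 0 of the 30 by either tool, with 2 at an unadjusted p under 0.05 in edgeR. *Nupr1*, a stress-responsive regulator of transcription, rose in both (1.68 and 1.89, adjusted p = 0.0301 and 0.0202), and *Cth*, which makes cysteine, fell in both (-2.61 and -1.84, adjusted p = 0.00819 and 0.0202, edgeR). *Cebpb* (1.53, adjusted p = 0.0265), the asparagine synthetase *Asns* (1.35, adjusted p = 0.0457) and the asparaginyl tRNA synthetase *Nars* (1.09, adjusted p = 0.0366) rose in WT mice. *Gpt2*, an alanine transaminase, fell in WT mice (-2.10, adjusted p = 0.0111). The list's median log2 fold change was 0.56 in WT and 0.76 in *Hsf1* null mice, beside 0.0046 and 0.052 over all genes tested. As mean log2 CPM centred on each gene's mean over the mice, the list stood at 0.59 and -0.47 in untreated WT mice. Treated WT mice were at 0.37 and 0.60, so WT day 0 replicate 1 lay between them. In *Hsf1* null mice the list was at -0.43 and -0.68 and then at -0.041 and 0.060. The list's summed level in WT mice did not overlap, at 1255 to 1887 CPM and then 2252 to 2785 CPM.

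The list of 14 sensors and membrane-bound transcription factors also held genes that act with them, *Eif2s1* among them. Of the 14, 1 fell in *Hsf1* null mice (*Eif2s1*, given with the genotypes) and 0 were called in WT mice. In edgeR 8 and 6 of them had an unadjusted p under 0.05. DESeq2 called 2 lower in *Hsf1* null mice (*Eif2s1* and *Mbtps2*) and 1 in WT mice (*Ern2*). Of 18 genes of ER-associated degradation, 0 were called with treatment in either genotype by edgeR or DESeq2, with 3 and 6 at an unadjusted p under 0.05. Over the 150 genes of all lists, edgeR called 10 with treatment in WT (6.67%, beside 7.74% of all genes tested) and 16 in *Hsf1* null mice (10.7%, beside 11.8%), and DESeq2 called 17 and 24. The shares of the lists were thus close to the background and slightly below it. Each of these calls kept its direction but was lost in at least 1 of the 8 fits that leave out 1 mouse. Of the 10 calls in WT, 0 were kept without WT day 15 replicate 2, 1 without WT day 0 replicate 2 and 3 without WT day 0 replicate 1. Of the 16 calls in *Hsf1* null mice, 0 were kept without *Hsf1* null day 0 replicate 2, 3 without *Hsf1* null day 15 replicate 2 and 9 without *Hsf1* null day 15 replicate 1.

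Between the genotypes at day 15, 6 of the 150 genes of the wider lists (4%, beside 3.17% of all genes tested) were called by edgeR, all higher in WT, and 17 were called by DESeq2. *Eif2ak3*, which encodes PERK, was at 34.9 and 34.3 CPM among WT mice and at 13.5 and 15.8 CPM among *Hsf1* null mice (log2 fold change 1.24, SE 0.26, adjusted p = 0.0374, edgeR). *Eif2s1*, which encodes eIF2α, was at 57.6 and 57.5 CPM among WT mice and at 15.3 and 27.7 CPM among *Hsf1* null mice (1.42, SE 0.32, adjusted p = 0.0461). It had fallen with treatment in *Hsf1* null mice from 54.6 and 71.1 CPM (-1.54, adjusted p = 0.0211). They were the 2 that edgeR called among the 14 genes of the list of sensors and membrane-bound transcription factors. DESeq2 called *Creb3l2*, a membrane-bound transcription factor, as well.

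*Derl3*, which is involved in the degradation of misfolded ER proteins, was at 65.5 and 59.0 CPM among WT mice and at 4.34 and 12.7 CPM among *Hsf1* null mice at day 15 (2.86, SE 0.52, adjusted p = 0.0255, edgeR). At day 0 its values already did not overlap, at 38.6 and 16.3 CPM in WT against 6.73 and 7.18 CPM (2.02, unadjusted p = 0.00325, adjusted p = 0.775). It was the 1 gene that edgeR called at day 15 among 18 of ER-associated degradation. *Sec61a1*, the pore of the translocon, was at 321 and 354 CPM among WT mice and at 151 and 163 CPM among *Hsf1* null mice (1.10, SE 0.22, adjusted p = 0.0330). Untreated WT mice had 262 and 248 CPM against 151 and 159 CPM in untreated *Hsf1* null mice, likewise without overlap (0.72, unadjusted p = 0.00851, adjusted p = 0.775). *Eif2ak3* and *Cebpb* were also higher in WT at day 0 without overlap and without a call (0.38 and 0.54). At day 15 *Cebpb* was higher in WT by 1.42 (adjusted p = 0.0478, edgeR). Plasma cell markers were higher in WT at this day as given above, and their part in the levels of these genes was not tested. In edgeR 0 of 12 BiP cochaperones, 0 of 11 genes of glycoprotein quality control and 0 of 23 folding enzymes were called between genotypes at day 15, as in DESeq2, with 4, 1 and 5 at an unadjusted p under 0.05. At day 0, 0 of the 150 genes were called by either tool, with 22 at an unadjusted p under 0.05 in edgeR. Of the 6 calls at day 15, 0 were kept without either *Hsf1* null mouse of day 0, WT day 15 replicate 2 or *Hsf1* null day 15 replicate 1, 2 without either WT mouse of day 0 and 3 without WT day 15 replicate 1, and their directions did not change.

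Of 15 cytosolic heat shock chaperones, among them known targets of HSF1, *Dnajb1* was called higher in WT at day 15, at 78.5 and 133 CPM against 37.0 and 31.8 CPM (1.62, SE 0.30, adjusted p = 0.0277, edgeR). At day 0 its values did not overlap either, at 63.4 and 89.7 CPM in WT against 51.8 and 50.6 CPM (0.57, adjusted p = 0.794, not called). DESeq2 called 6 of the 15 higher in WT at day 15 (*Hspa1a*, *Hspa1b*, *Hspa8*, *Hsph1*, *Dnajb1* and *Dnaja1*). In edgeR 7 of the 15 had an unadjusted p under 0.05 at day 15. For *Hspa1a* and *Hspa1b* the genotypes overlapped at day 15, as WT replicate 1 lay below *Hsf1* null replicate 2. The median of the list was 0.82 at day 15, beside 0.22 for the 7 ER chaperone genes and 0.035 over all genes tested. At day 0 it was 0.40, beside 0.41 for the 7 ER chaperone genes and 0.011 over all genes tested, so the medians of both lists were close at that day. With treatment 0 of the 15 were called by edgeR in either genotype, with 7 at an unadjusted p under 0.05 in WT and 1 in *Hsf1* null mice. DESeq2 called 3 higher in WT (*Hspa1a*, *Hspa1b* and *Hsph1*) and 1 higher in *Hsf1* null mice (*Hsp90ab1*). Those 3 were high in WT day 15 replicate 2, at 73.5, 108 and 94.3 CPM, and at 10.3, 15.1 and 28.4 CPM in replicate 1.

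**Figure D5:**
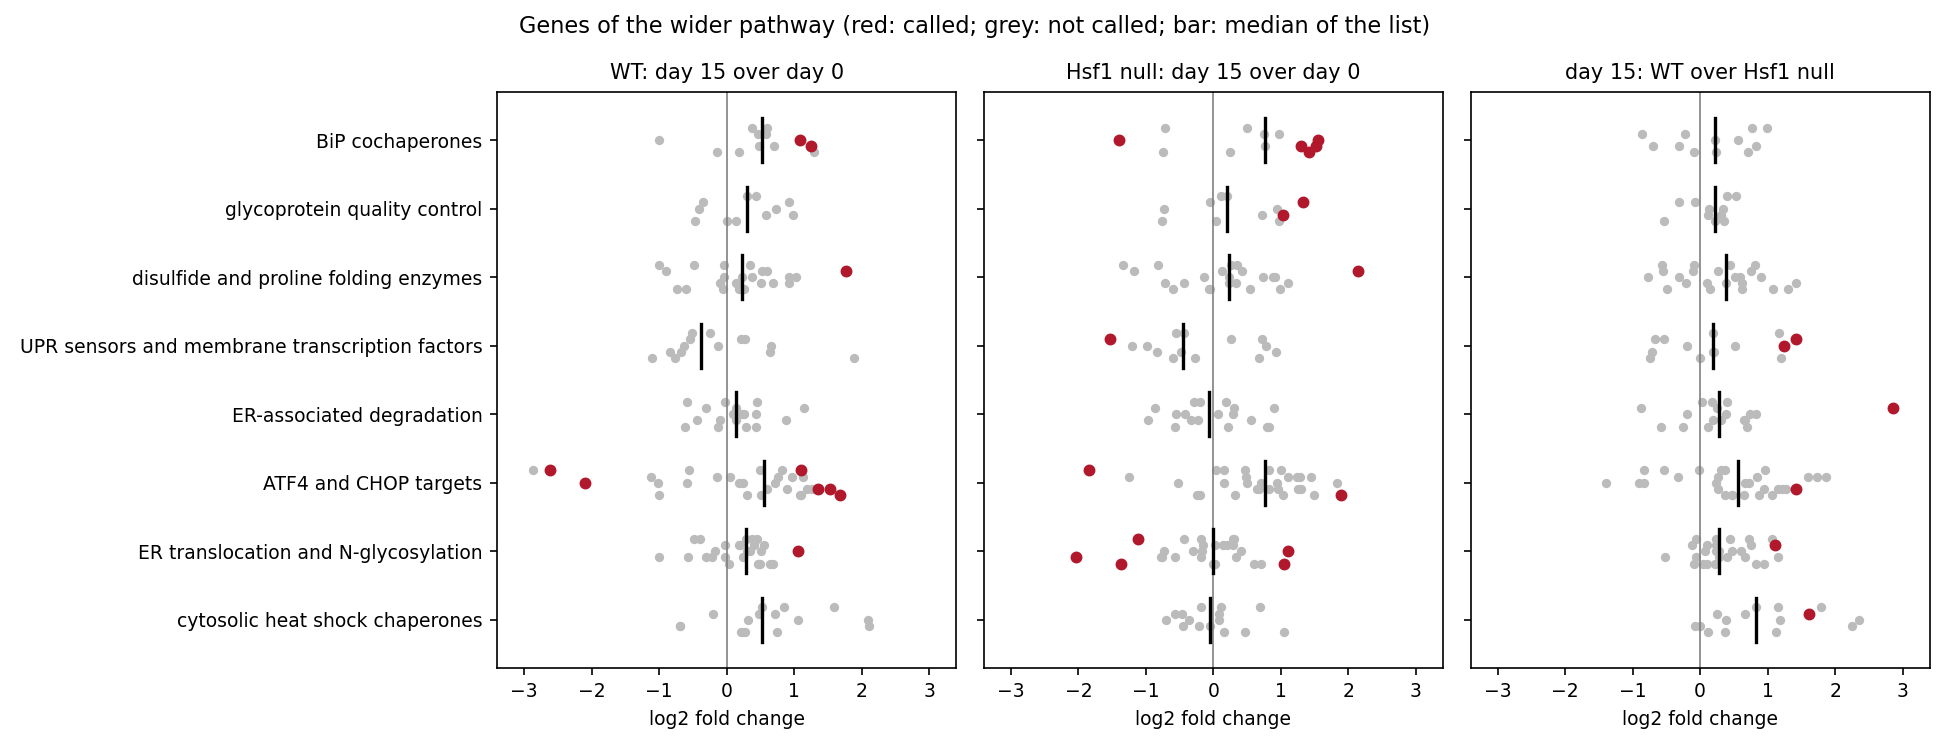
Log2 fold change (horizontal axis) of each gene of the 8 pathway lists in the 2 treatment comparisons and between genotypes at day 15, with red points for called genes, grey points for the others and a bar at the list's median. BiP cochaperones hold called genes in both treatment panels, and the 6 genes called at day 15 between genotypes all lie above 0.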

How the data were processed

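RNA from distal colon (SENSE mRNA-Seq kit, poly(A) RNA) was sequenced on a NovaSeq instrument, and the authors aligned reads to mm10 with STAR. The authors deposited raw counts per gene symbol for 8 samples, in which every listed gene has a count of at least 6 in a sample. The program that counted reads, its annotation and its use of strand are not given in the sources used here. Their second table, of normalized counts, was not used. Samples were grouped by the labels.

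Changes were tested with edgeR 4.0.16 (R 4.3.3): TMM scaling, a quasi-likelihood fit of 1 model of the 4 groups (prior degrees of freedom 5.97), genes with a mean size-factor-normalized count above 5, and Benjamini-Hochberg adjustment over all genes tested within each comparison. A call needed an adjusted p below 0.05 and a log2 fold change beyond 1 in size. The SE is the log2 fold change divided by the square root of its F statistic. Total counts per sample, 2553348 to 12440257, set the precision, and 3 counts were between 0.246 and 1.19 CPM.

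The 10 genes and all lists were chosen with earlier results of these data known, so lists are described by counts and medians without a test. Named genes are *Hsf1*, the 10 genes, genes of the 8 pathway lists called in a comparison (at most 4 by unadjusted p in each comparison and direction) and the 5 genes nearest to the mean of the 7 chaperone genes. *Ngp*, *Tnfrsf17*, *Tnfrsf13b*, the marker genes called at day 15, *Mars*, *1810014B01Rik* and the heat shock, folding enzyme, fibroblast, epithelial and sensor genes called by DESeq2 alone were named after their values were seen. The same holds for *Sdc1*. Marker lists were for goblet, absorptive, plasma, fibroblast, macrophage, neutrophil, smooth muscle, epithelial and endothelial cells.

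Positions are from GENCODE M21 on GRCm38 (mm10), lengths from its merged basic exons, promoters from RefSeq on GRCm38.p6, and the *Xbp1* intron was located in the annotated mRNA. Alternatives were DESeq2 1.42.0, its size factors in edgeR, no filter, filterByExpr, no threshold on the fold, the replicate number as a block, only the groups compared, counts thinned to the smallest library, each mouse left out in turn, and both smallest libraries left out. The fits were tested on simulated counts.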

Additional observations from a re-analysis of the deposited data

Results flagged for a closer look

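*Xbp1* and *Eif2s1* stood out by opposite directions. In WT the 2 treated mice lay above the 2 untreated mice without overlap, and in *Hsf1* null mice below them without overlap. For *Eif2s1* the gap in WT was narrow, from 42.8 and 56.7 CPM at day 0 to 57.6 and 57.5 CPM at day 15. For *Xbp1* the log2 fold change with treatment was 0.32 in WT and -1.25 in *Hsf1* null mice, and the difference was 1.57 (SE 0.35, unadjusted p = 0.00128, adjusted p = 0.328 from edgeR). For *Eif2s1* it was 0.22 in WT and -1.54 in *Hsf1* null mice, and the difference was 1.76 (SE 0.45, unadjusted p = 0.00295, adjusted p = 0.380, edgeR). Neither difference passed the adjustment over all genes tested in edgeR, and DESeq2 called that of *Xbp1* (adjusted p = 0.0132) and not that of *Eif2s1*. These genes were picked by the non-overlap itself, which gives no support to the difference. Groups of 2 mice were not searched for outlying mice.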

How the results depend on the processing

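Of 790 values of the 10 genes under the alternatives, 725 kept their direction and their side of the threshold, 21 lost a call, 1 gained a call and 43 changed sign, none of the last a called value. DESeq2's size factors, no filter on low counts, filterByExpr and thinning to the smallest library changed no call of the 10 genes. With the fold threshold dropped, the counts of called genes among the 10 were the same. DESeq2 called 1735 genes with treatment in WT, 17 between genotypes at day 0, 1177 at day 15 and 116 for the difference between genotypes, where it also called 1 of the 10 (*Xbp1*). It called 17 listed pathway genes with treatment in WT and 17 between genotypes at day 15. The genes called for the difference were 2 without the filter on low counts and 2 with thinned counts. With the 4 mice of day 15 alone, 6 genes, 0 of the 10 and 0 of the pathway genes were called between genotypes at that day. The cause was not tested.

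Without both smallest libraries, 1 mouse was left in each untreated group and was assumed to vary like the other groups. Then 4 genes were called with treatment in WT, 0 in *Hsf1* null mice, 18 between genotypes at day 15 and 0 for the difference, with 0 of the 10 genes and 0 of the pathway genes in each. Fewer samples leave fewer residual degrees of freedom. Values that changed sign were *Hspa5* in WT (-0.18), *Hspa5* (0.21), *Canx* (0.024) and *Ddit3* (-0.12) in *Hsf1* null mice, *Hsp90b1* (0.49) and *Atf4* (0.052) between genotypes at day 0, and *Hspa5* (-0.39), *Calr* (-0.31) and *Canx* (-0.18) in the difference. None of these was called in either fit.

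Leaving out 1 mouse in turn gave 92 to 1336 genes with treatment in WT, 0 to 1891 in *Hsf1* null mice, 0 to 17 between genotypes at day 0, 12 to 873 at day 15 and 0 to 50 for the difference. Called genes among the 10 ranged from 0 to 1 in WT, 0 to 2 in *Hsf1* null mice and 0 to 1 at day 15, and pathway genes from 0 to 12, 0 to 27, 0 to 1 (day 0) and 0 to 9 (day 15). With treatment in WT, *Hspa5* ranged from -0.16 to 0.89, *Canx* from -0.14 to 0.12 and *Pdia4* from -0.55 to 0.45. In *Hsf1* null mice *Hsf1* ranged from -0.52 to 0.050, *Hspa5* from -0.44 to 0.24, *Canx* from -0.37 to 0.13, *Atf4* from -0.20 to 0.031 and *Ddit3* from -0.090 to 0.53. At day 0 *Hspa5* ranged from -0.22 to 0.83, *Hsp90b1* from -0.54 to 0.33, *Canx* from -0.011 to 0.29 and *Ddit3* from -0.22 to 1.48. At day 15 *Canx* ranged from -0.023 to 0.49, *Pdia3* from -0.16 to 0.42 and *Pdia6* from -0.43 to 0.28. In the difference *Hspa5* ranged from -0.063 to 1.01, *Hsp90b1* from -0.65 to 0.23, *Calr* from -0.098 to 0.52, *Canx* from -0.15 to 0.35, *Pdia3* from -0.44 to 0.12 and *Pdia4* from -0.85 to 0.17.

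Replicate numbers do not pair these mice, which are different animals: across genes, mice with the same number deviated from their groups with correlations between -0.30 and 0.20. With the replicate number as a block, 0 of the 10 genes (*Pdia6*, adjusted p = 0.0589) and 6 pathway genes were called with treatment in WT, and 2 genes for the difference. The block changed no other call of the 10 genes.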
